A study of Mus musculus with 2 samples.

Results

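The genes described here encode parts of the mitochondrial respiratory chain and the ATP synthase. They are the genes whose symbols start with Nduf, Uqcr, Cox4, Cox5, Cox6, Cox7, Cox8 or Atp5, together with the mitochondrial mt-Nd, mt-Co, mt-Cytb and mt-Atp genes, and they number 103 of the 32285 genes counted. Of these, 90 are nuclear genes on 19 chromosomes and 13 lie on the mitochondrial genome. They were read in lymphocytes sorted for CD45 and CD90.2 from tumours of C57BL/6 mice, with 1 single-cell library labelled WT and 1 labelled Dapl1-KO, a label for mice that lack Dapl1. The study asks how loss of Dapl1 alters T cells inside tumours. The tumour, the age of the mice, the kind of Dapl1 allele and how many animals went into each library are not stated in the labels.

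Complexes I, III and IV pass electrons from NADH and from the carriers ubiquinone and cytochrome c to oxygen and pump protons across the inner mitochondrial membrane, and complex V uses the proton gradient to make ATP. Subunits of each of these complexes come from both genomes, so nuclear messages translated in the cytosol and mitochondrial messages translated inside the organelle must meet in one assembly. Resting T cells rely mostly on oxidative phosphorylation, dividing T cells enlarge both glycolysis and mitochondria, and impaired mitochondria are a known trait of exhausted T cells in tumours.

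Cells were assigned to states by messages of a few marker genes. Naive cells carried genes of naive T cells such as Ccr7 and Lef1 without Pdcd1 and granzymes A and B. Effector cells carried Gzma, Gzmb or Ly6c2 without Pdcd1, the gene of the checkpoint receptor PD-1. PD-1 cells carried Pdcd1, and cycling cells carried several division genes such as Mki67. NK cells carried Ncr1 or Klrb1c without Cd3d, Cd3e, Cd3g, Cd4, Cd8b1 or Foxp3. The T cell receptor gene Trdc was still found in 17.8% of NK cells under the WT label and 21.0% under the KO label. The WT-labelled library gave 1641 naive, 1448 effector, 1870 PD-1, 1143 cycling and 376 NK cells. The KO-labelled library gave 735, 2241, 2355, 2013 and 466 cells in the same order. The T cell states hold CD8 T cells and other T cells together, and this mix differed between states. Cells with Cd8a or Cd8b1 messages made up 56.5% and 55.4% of naive and 57.2% and 58.9% of effector cells. They made up 77.4% and 81.7% of PD-1 and 91.1% and 93.8% of cycling cells, so the steps between states are also steps in this mix.

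Some markers that the gates did not use followed the states, and others did not. Tcf7, a factor of naive and memory T cells, was lower from state to state, from 283 CPM (counts per 1000000 UMIs of a state) in naive cells to 15.5 CPM in cycling cells of the WT-labelled library and from 274 to 14.1 CPM in the KO-labelled library. Pclaf, a replication gene, reached 335 and 484 CPM in cycling cells and stayed at or under 24.5 CPM in the other 4 states. The effector markers Ccl5, Nkg7, Cx3cr1 and Klrg1 together were at 10145 CPM in effector and 11086 CPM in PD-1 cells of the WT-labelled library. In the KO-labelled library they were at 13703 and 14580 CPM, so they did not set effector cells apart. In naive cells these markers together were at 2915 CPM in the WT-labelled and 4033 CPM in the KO-labelled library. Ccl5 alone gave 2546 and 3430 CPM there. The naive state is thus named for its gate and was not free of effector messages. The NK marker Gzmc was at 911 CPM in NK and 839 CPM in cycling cells of the WT-labelled library. Its levels in the KO-labelled library were 453 and 948 CPM. The summed level of 7 genes of other cell types ran from 59.4 to 128 CPM in T cell states of the WT-labelled library and from 112 to 242 CPM in the KO-labelled library. The highest of these values was in naive cells of the KO-labelled library, where Cd74 alone gave 215 CPM against 23.3 CPM in the other library. The part of such cells in the results was not tested.

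The targeted gene went against the labels in T cells. Dapl1 was at 159.7 and 183 CPM in naive cells of the WT-labelled and the KO-labelled library, at 42.3 and 53.6 CPM in effector, at 21.1 and 22.4 CPM in PD-1 and at 10.4 and 13.4 CPM in cycling cells, higher under the KO label in each. Pooled, with fewer naive cells in the KO-labelled library, it was at 37.4 CPM (3189 UMIs) over the 5 states of the WT-labelled library and at 29.9 CPM (3418 UMIs) in the KO-labelled library, and the labels do not say which part of the gene the allele removes. The libraries also differed in sex-linked messages. Xist without Y-linked messages was found in 73.5% of the WT-labelled cells and 0.102% of the KO-labelled cells, and Y-linked messages without Xist in 11.6% and 71.9%. Over all cells, genotype label, library and sex therefore cannot be told apart, and cells with the same sex-linked messages are compared further below. Label and library cannot be told apart in any cells. The libraries shared 13132 barcodes, one copy of each usually much smaller, and the smaller copy was left out. With 1 library a label, no p-value is given. A difference between states has 2 values, 1 a library, and differences between labels carry 95% intervals that cover counting error only.

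The 90 nuclear genes took a larger share of messages in PD-1 and cycling cells than in naive cells of either library, and the 13 mitochondrial genes a smaller one. In the WT-labelled library, the nuclear genes held 1.35% of UMIs in naive, 1.80% in effector, 2.40% in PD-1, 2.91% in cycling and 2.07% in NK cells. In the KO-labelled library the shares were 1.74%, 2.13%, 2.69%, 3.07% and 2.41%. The order of the 5 states was the same in both libraries, naive lowest and cycling highest, with NK cells between effector and PD-1 cells. The mitochondrial genes held 3.24%, 2.99%, 2.74%, 2.58% and 2.79% of UMIs in naive, effector, PD-1, cycling and NK cells of the WT-labelled library and 3.57%, 3.23%, 2.83%, 2.84% and 2.83% in the KO-labelled library. Nuclear messages per mitochondrial message thus went from 0.418 and 0.489 in naive cells to 1.13 and 1.08 in cycling cells. Regulatory T cells, gated on Foxp3 for comparison, had nuclear shares of 2.32% and 2.54%, close to those of PD-1 cells.

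**Figure D1:**
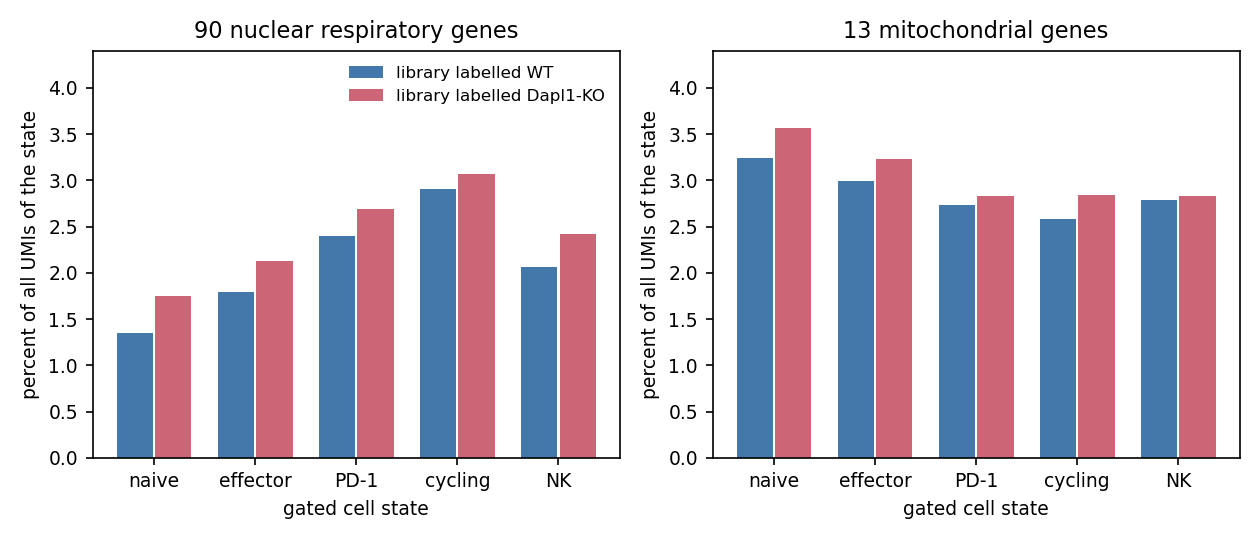
Share of all UMIs (percent) held by the 90 nuclear and the 13 mitochondrial respiratory genes in each gated state, with 1 bar per library. Nuclear bars climb from 1.35% and 1.74% in naive to 2.91% and 3.07% in cycling cells, while mitochondrial bars are tallest in naive cells. Bars are single values without replicates.

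Shares of UMIs are relative, and other large classes of message moved with the state. Cytosolic ribosomal protein genes held 46.8% and 46.4% of UMIs in naive cells, 41.3% and 38.1% in effector cells, 39.3% and 34.9% in PD-1 cells, 36.8% and 33.9% in cycling cells and 36.4% and 33.7% in NK cells. Cells also differed in depth. The median cell had 6336 and 7614 UMIs in the naive state, 6680 and 6397 in the effector state, 9772 and 9389 in the PD-1 state, 29594 and 26707 in the cycling state and 5996 and 6475 in the NK state. Per cell, the nuclear genes gave 95.7 and 144 UMIs in naive cells and 963 and 943 in cycling cells, and the mitochondrial genes 229 and 294 against 854 and 872. In UMIs per cell, then, both sets were higher in cycling cells, and the mitochondrial set was lower only as a share of all messages. Each state step was for these reasons also computed in cells of 5000 to 15000 UMIs, and with a total that leaves out mitochondrial and ribosomal protein genes.

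Promoters of the nuclear members are shown because these genes were mostly higher together in PD-1 and cycling cells and share sequence motifs known from genes of mitochondria. RefSeq's promoter table (build GRCm38.p6) held 72 of the 90 nuclear genes, each with 250 bases before and 50 bases after the start. The site of the factor NRF1, searched as GCGC and TGCGC with any single base between them, occurred on either strand in 16 of them (22.2%) against 4.78% of all 27025 promoters. CCGGAAG, a site of ETS factors such as GABP, occurred in 16 (22.2%) against 9.12%, and AANATGGCG, the site of YY1, in 9 (12.5%) against 2.51%. At least 1 of the 3 was found in 36 promoters (50%) against 14.7%, and in no promoter did matches to different motifs overlap. The full set of promoters includes genes that lymphocytes do not use. Shown are the 200 bases before the start, 5′ to 3′ on the strand of the gene, with matches in capitals.
Ndufb4, chr16:37654369-37654568, minus strand: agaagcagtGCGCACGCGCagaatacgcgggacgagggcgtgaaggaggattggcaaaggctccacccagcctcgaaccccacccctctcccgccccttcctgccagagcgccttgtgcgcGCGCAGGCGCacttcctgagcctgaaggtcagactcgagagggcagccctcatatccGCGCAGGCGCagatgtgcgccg
Cox6a1, chr5:115348959-115349158, minus strand: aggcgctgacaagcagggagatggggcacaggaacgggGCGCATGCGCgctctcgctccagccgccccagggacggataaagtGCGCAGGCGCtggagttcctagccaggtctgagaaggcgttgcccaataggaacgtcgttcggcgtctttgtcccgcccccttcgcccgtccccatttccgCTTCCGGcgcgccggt
Atp5h, chr11:115419920-115420119, minus strand: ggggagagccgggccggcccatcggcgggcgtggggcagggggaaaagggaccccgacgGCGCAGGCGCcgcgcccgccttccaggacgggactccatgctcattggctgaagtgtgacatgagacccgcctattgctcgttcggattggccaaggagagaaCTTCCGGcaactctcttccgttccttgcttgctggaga
Ndufa6, chr15:82354292-82354491, minus strand: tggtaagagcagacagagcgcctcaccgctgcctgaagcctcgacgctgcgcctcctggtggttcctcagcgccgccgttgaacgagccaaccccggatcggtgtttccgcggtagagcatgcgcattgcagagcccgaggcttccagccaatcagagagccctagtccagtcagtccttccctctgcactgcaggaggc
Cox7a2l, chr17:83514334-83514533, minus strand: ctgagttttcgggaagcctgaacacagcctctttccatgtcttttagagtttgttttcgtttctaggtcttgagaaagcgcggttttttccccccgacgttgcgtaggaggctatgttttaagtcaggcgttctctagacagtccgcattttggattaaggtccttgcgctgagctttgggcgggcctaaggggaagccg
The first 3 genes hold the most matches before the start and were all higher in cycling than in naive cells. So were 59 of the 72 members with a promoter. At least 1 motif was found in 31 of these 59 (52.5%), against 36 of all 72 (50%). The 59 make up most of the 72, so these shares had to be close. They cannot show whether matches mark out the higher genes. Ndufa6 and Cox7a2l are the 2 nuclear genes that were lower at every step from naive to cycling cells. The stretch of Ndufa6 shows no match, its NRF1 match lying outside it, and the window of Cox7a2l holds none of the 3 motifs.

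Most nuclear members were detected well. The highest states reached 50 CPM for 74 of the 90 nuclear and 12 of the 13 mitochondrial genes, and these are the genes compared below. A gene entered a comparison when the higher of the states reached 50 CPM in both libraries, so genes near that level entered only because they were high in one state. The 16 nuclear genes below 50 CPM included 7 assembly factors named Ndufaf1 to Ndufaf7, the core subunit Ndufs1 at up to 25.1 CPM, and isoforms known from muscle or other tissues. UMIs were read at 3′ ends, 1 tag a molecule, so levels of different genes were set side by side without a length term, although capture differs between messages. Many of these genes have processed copies elsewhere in the genome, and how reads that match a copy were counted is not stated in the labels, so levels are less certain than differences between states.

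Most nuclear genes were higher in PD-1 than in effector cells. A gene was called higher when its CPM was at least 1.2-fold higher in both libraries. Of 72 nuclear members compared, 54 were higher and 0 lower in PD-1 cells, beside 32.9% of all 2079 genes called higher. The median log2 ratio over these members was 0.48 in the WT-labelled and 0.43 in the KO-labelled library, against 0.15 and 0.11 over all genes. Summed over the nuclear members, the log2 ratio was 0.38 ± 0.055 (SD, n = 2 libraries that differ in label), and with gates drawn on counts thinned to 3000 UMIs a cell it was 0.15. In cells of 5000 to 15000 UMIs, 39 of 71 members were higher and 0 lower (all genes 29.3% and 8.42%), and without mitochondrial and ribosomal genes in the total, 44 of 75 and 0 (all genes 23.9% and 17.8%). When both states had to reach 50 CPM, 52 of 69 were higher and 0 lower (all genes 30.5% and 10.8%). In cells of 3000 to 6000 UMIs the step was smaller. The nuclear share there was 1.73% in effector and 1.84% in PD-1 cells of the WT-labelled library. Shares in the KO-labelled library were 2.12% and 2.24%. NK cells stood above PD-1 cells at that depth, at 1.92% and 2.29%.

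Accessory subunits of complex I, which surround its catalytic core, were the largest group and held 4 of the 5 largest mean ratios at that step. Of 28 compared, 22 were higher. Ndufb8 was at 119 and 230 CPM in effector and PD-1 cells of the WT-labelled library and at 140 and 232 CPM in the KO-labelled library. The corresponding levels of Ndufc1 were 72.9 and 122 CPM and 83.9 and 157 CPM. The PD-1 level was above the effector level in both libraries for both genes, with log2 ratios of 0.95 and 0.73 for Ndufb8 and 0.74 and 0.90 for Ndufc1. Ndufc2 (0.79 and 0.82) and Ndufb9 (0.75 and 0.69) followed. Ndufa6, an accessory subunit that carries an acyl carrier protein, differed from the rest, with ratios of -0.06 and -0.22, which were not called, as did Ndufb11, an X-linked subunit, at 0.15 and 0.00075. Among core subunits, which hold the flavin and iron-sulphur clusters, 4 of 5 compared were higher.

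Most members of complexes III, IV and V were higher at this step too. In complex III, the cytochrome bc1 complex, 6 of 8 members were higher, and in cytochrome c oxidase (complex IV), 8 of 12. Cox5a, a nuclear-encoded subunit of the oxidase, was at 274 and 424 CPM in effector and PD-1 cells of the WT-labelled library. In the KO-labelled library it was at 314 and 508 CPM. Cox5b had log2 ratios of 0.69 and 0.55. Cox7a2l, a factor that joins complexes III and IV into supercomplexes, was not called, with ratios of -0.14 and -0.23. In complex V, the ATP synthase, 13 of 17 were higher. Atp5b, its catalytic beta subunit, was at 306 and 424 CPM in the WT-labelled library and at 330 and 457 CPM in the KO-labelled library, and Atp5mpl, a small membrane subunit, stayed at 253 and 258 CPM and at 312 and 320 CPM.

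PD-1 cells with TIM-3 messages (Havcr2), a mark of late exhaustion, had nuclear shares of 2.57% and 2.81%, against 2.16% and 2.55% in PD-1 cells without them. Of 74 nuclear members, 21 were higher and 0 lower in the cells with TIM-3, beside 18.6% of all genes called higher. Ndufc1 had log2 ratios of 0.67 and 0.53. The median cell with TIM-3 messages had 14036 and 13157 UMIs against 7033 and 7208, and what depth contributed was not tested in this split.

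Mitochondrial genes went the other way from effector to PD-1 cells. Of 12 compared, 0 were higher and 4 lower, beside 13.7% of all genes called lower, and all 12 had log2 ratios under 0 in both libraries. The summed log2 ratio was -0.16 ± 0.045 (SD, n = 2). The lower genes were mt-Nd2, mt-Nd4l and mt-Nd5, which encode membrane subunits of complex I, and mt-Atp8 of complex V. For mt-Nd5 the levels were 425 and 320 CPM in effector and PD-1 cells of the WT-labelled library and 431 and 327 CPM in the KO-labelled library, log2 ratios of -0.41 and -0.40. Genes for the 3 large subunits of complex IV differed less. The ratios of mt-Co1 were -0.08 and -0.17, those of mt-Co2 -0.03 and -0.13, and those of mt-Co3 -0.10 and -0.14.

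**Figure D2:**
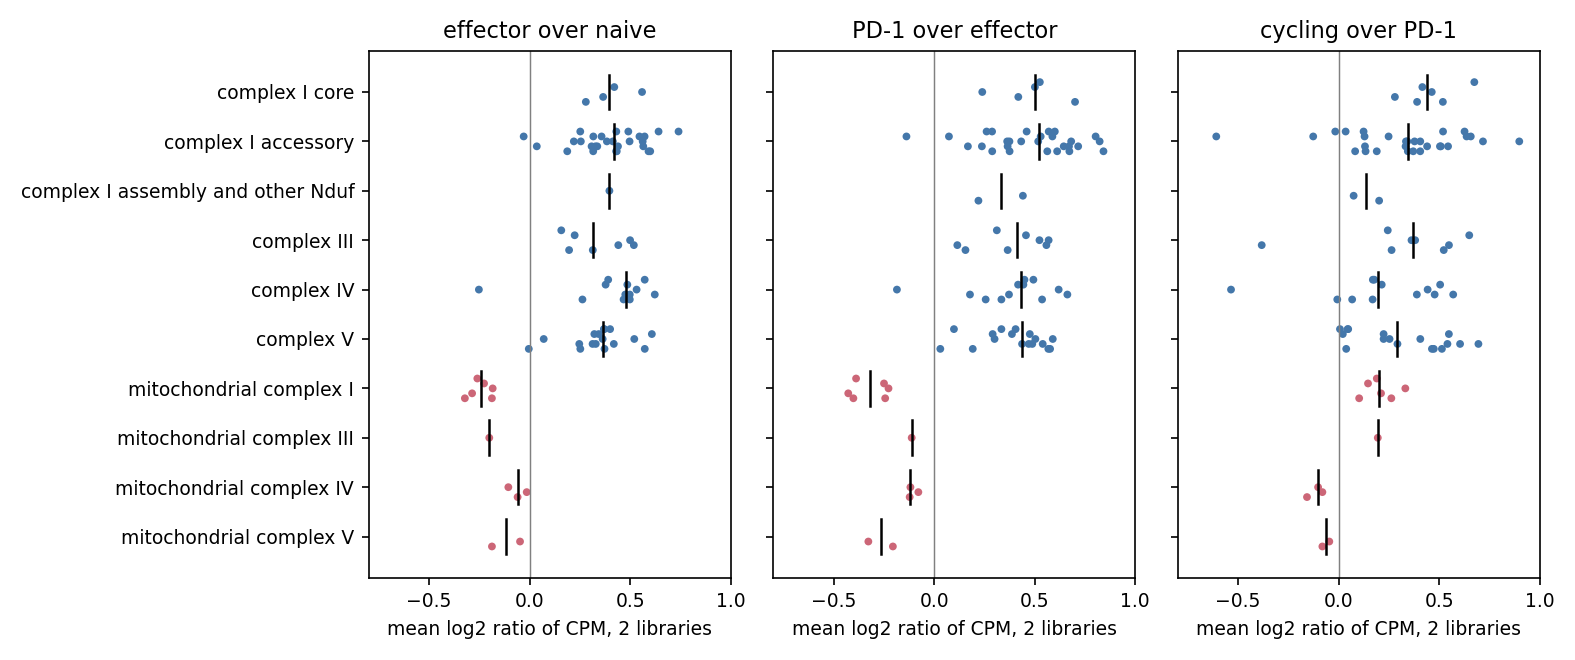
Log2 ratios of CPM between states, 1 point per gene (mean of 2 libraries), grouped by complex, with black bars at group medians. Nuclear groups (blue) lie mostly right of 0 at each step, and mitochondrial genes (red) left of 0 at the first 2 steps and on both sides of 0 at the third.

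From naive to effector cells, 42 of 69 nuclear members were higher and 0 lower, beside 36.2% of all 1901 genes. The summed log2 ratio was 0.35 ± 0.086 (SD, n = 2). The call depended on the total used. Without mitochondrial and ribosomal protein genes in the total, 3 of 75 members were higher and 1 lower, beside 12.6% and 13.6% of all genes, and the summed ratio was 0.15, while gates on thinned counts gave 0.60. In cells of 5000 to 15000 UMIs, 44 of 69 were higher and 0 lower (all genes 37.1% and 4.68%), and with both states at 50 CPM, 39 of 65 and 0 (30.6% and 4.27%). By share of all UMIs, Ndufb7 was at 112 and 198 CPM in naive and effector cells of the WT-labelled library and at 156 and 247 CPM in the KO-labelled library. Ndufa13, an accessory subunit also known as GRIM-19, was at 212 and 352 CPM and at 317 and 464 CPM. Both genes were higher in effector cells of each library. Cox5a (log2 ratios 0.76 and 0.48), Atp5d (0.72 and 0.50) and the X-linked Ndufa1 (0.74 and 0.45) had ratios nearly as large. At the other end stood Cox7a2l at -0.29 and -0.22, Ndufa6 at -0.03 in both libraries, and Atp5g2 at 0.14 and 0.00034.

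At the same step, 1 of 12 mitochondrial genes was lower, beside 4.73% of all genes, and 11 had ratios under 0 in both libraries. That gene was mt-Nd5, at 539 and 425 CPM in naive and effector cells of the WT-labelled library and at 531 and 431 CPM in the KO-labelled library. The summed log2 ratio was -0.13 ± 0.019 (SD, n = 2), and with mitochondrial and ribosomal genes left out of the total it was -0.32.

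From PD-1 to cycling cells, 39 of 74 nuclear members were higher and 3 lower, beside 36.2% higher and 16.2% lower of all 2255 genes. With gates on thinned counts the summed ratio was 0.090. In cells of 5000 to 15000 UMIs, 8 of 72 were higher and 1 lower, beside 16.2% and 2.31% of all genes, and the summed log2 ratio went from 0.23 ± 0.063 (SD, n = 2) to 0.081. Without mitochondrial and ribosomal genes in the total, 37 of 75 were higher and 3 lower (all genes 31.2% and 19.5%), and with both states at 50 CPM, 37 of 72 and 3 (30.6% and 14.5%). Within PD-1 cells of the WT-labelled library, the nuclear share went from 1.84% at 3000 to 6000 UMIs to 2.79% at 24000 to 48000 UMIs, and within cycling cells from 1.61% to 2.97%. Values in the KO-labelled library were 2.24% to 2.91% and 2.04% to 3.10%. At 6000 to 12000 UMIs, naive, effector, PD-1 and cycling cells had 1.32%, 1.72%, 2.19% and 2.27% in the WT-labelled library and 1.68%, 2.12%, 2.55% and 2.60% in the KO-labelled library. Cycling cells were below PD-1 cells at 3000 to 6000 UMIs in both libraries, and above them at 12000 to 24000 UMIs (2.64% and 2.49%, then 2.97% and 2.82%). Mitochondrial shares at 6000 to 12000 UMIs were 3.22% and 3.57% in naive, 2.76% and 2.90% in PD-1 and 3.31% and 3.34% in cycling cells, so cycling cells were not lower than naive cells there in the WT-labelled library. The part of depth in the state differences was not tested beyond these values.

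**Figure D3:**
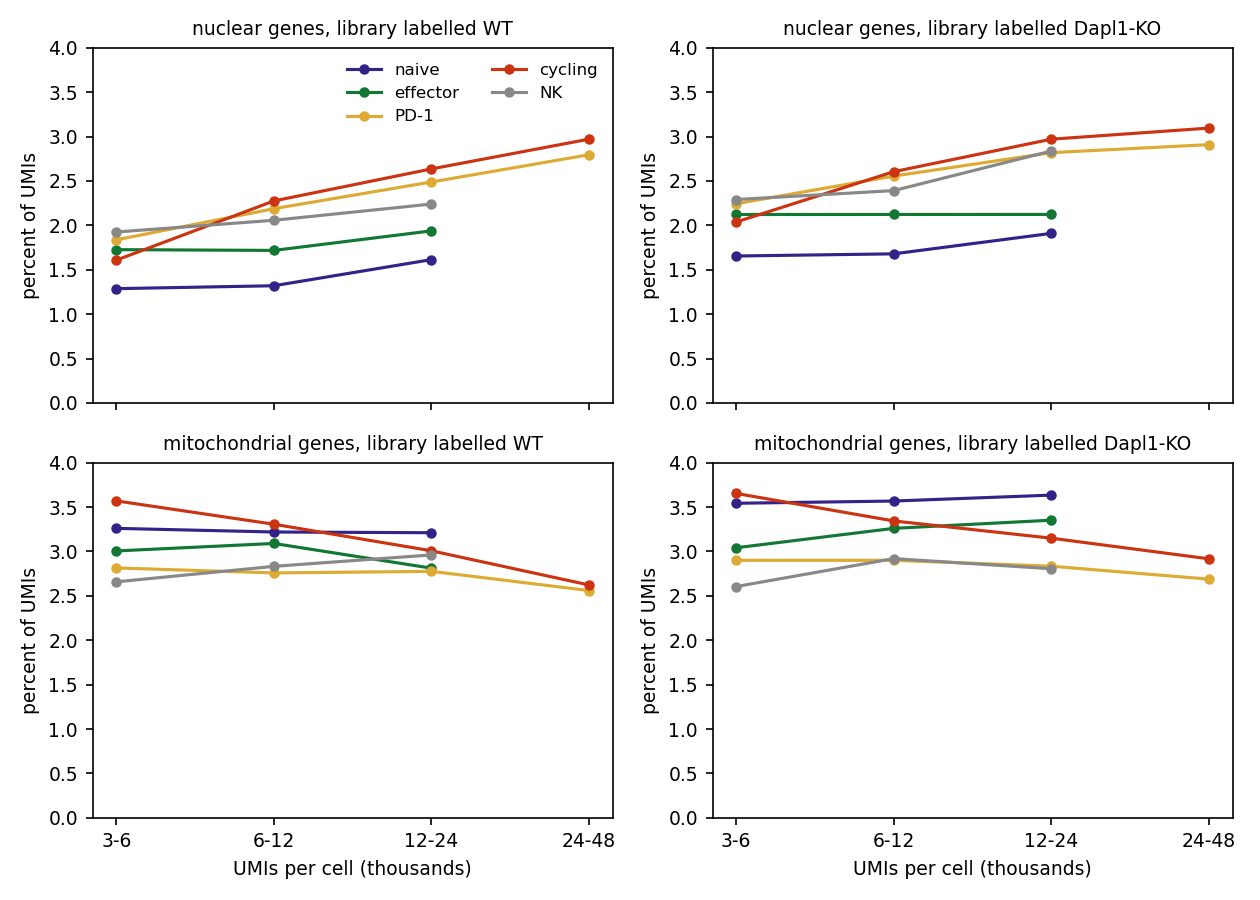
Share of UMIs (percent) of nuclear (top) and mitochondrial (bottom) respiratory genes by depth of the cell, 1 line per state, for bins of at least 20 cells. At 6000 to 12000 UMIs, the nuclear lines of naive cells lie at 1.32% and 1.68%, and those of PD-1 and cycling cells between 2.19% and 2.60%, close together within each library.

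Single genes with the largest ratios at this step came from complex I and complex V. Ndufab1, the mitochondrial acyl carrier protein, was at 129 and 258 CPM in PD-1 and cycling cells of the WT-labelled library and at 162 and 281 CPM in the KO-labelled library. Atp5b was at 424 and 723 CPM and at 457 and 701 CPM. Cycling levels were the higher ones in each library for both genes. Ndufa5 (log2 ratios 0.74 and 0.70), Ndufv1, the core subunit that binds NADH (0.73 and 0.62), and Ndufa12 (0.67 and 0.64) came next.

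The 3 lower genes were Ndufa6, Cox7a2l and Uqcrh. Ndufa6 was at 336 and 221 CPM in PD-1 and cycling cells of the WT-labelled library and at 298 and 195 CPM in the KO-labelled library. Uqcrh, the hinge protein of complex III and the most abundant nuclear member of that complex here, was at 1016 and 790 CPM and at 1061 and 803 CPM. For Cox7a2l the log2 ratios were -0.54 and -0.53, and for Ndufv3 (-0.12 and -0.13) and Ndufa13 (-0.0010 and -0.03) they were small.

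By share of all UMIs, mitochondrial genes of different complexes went different ways between PD-1 and cycling cells, which was not so in cells of 5000 to 15000 UMIs. Over all depths, all 6 mt-Nd genes compared and mt-Cytb, the mitochondrial subunit of complex III, had log2 ratios above 0 in both libraries, and the 3 mt-Co and 2 mt-Atp genes had ratios under 0. Of the 12, 1 was called higher and 0 lower, beside 36.2% and 16.2% of all genes. That gene, mt-Nd3, was at 307 and 390 CPM in the WT-labelled library and at 490 and 610 CPM in the KO-labelled library. The ratios of mt-Co1 were -0.20 and -0.12, and those of mt-Atp6 -0.13 and -0.03. Their sum did not have 1 direction, at -0.084 in the WT-labelled and 0.0050 in the KO-labelled library, and in cells of 5000 to 15000 UMIs the mean was 0.21. There all 13 genes had ratios above 0 in both libraries, with 0.09 and 0.14 for mt-Co1 and 0.19 and 0.22 for mt-Atp6. The limit of 10% mitochondrial messages removed 5.62% and 5.05% of cycling cells, 2.71% and 4.66% of PD-1 cells and at most 2.48% of the other 3 states.

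Across all 4 T cell states (naive, effector, PD-1, cycling), each successive step was also read for a difference of any size. By this looser rule 63 of 74 nuclear members were higher at each step in both libraries, beside 35.4% of all 2591 genes. At 1.2-fold, the first step had only 3 of 75 higher without mitochondrial and ribosomal protein genes in the total (all genes 12.6%). The last had 8 of 72 in cells of 5000 to 15000 UMIs (all genes 16.2%). At the middle step, the share of the nuclear genes differed little in cells of 3000 to 6000 UMIs. Only Ndufa6 and Cox7a2l were lower at each step. Between the 2 ends, cycling over naive, 70 of 74 were higher and 2 lower, beside 61% and 18.4% of all genes. No mitochondrial gene was higher throughout, and mt-Co1, mt-Co3, mt-Atp6 and mt-Atp8 were lower throughout, 4 of 12 beside 8.3% of all genes, although not at the last step in cells of 5000 to 15000 UMIs. The highest state had a median 2.66 times the level of the lowest among nuclear members in the WT-labelled library and 1.98 times in the KO-labelled library. Among mitochondrial genes the medians were 1.33 and 1.43 times.

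NK cells differed less from effector T cells. Of 71 nuclear members, 18 were higher and 0 lower in NK cells, beside 23.1% of all genes, which puts the members near the background, and the summed log2 ratio was 0.19 ± 0.014 (SD, n = 2). Without mitochondrial and ribosomal genes in the total, 2 of 75 were higher and 2 lower (all genes 12.7% and 14.9%), and the summed ratio was 0.072. In cells of 5000 to 15000 UMIs, 15 of 70 were higher and 1 lower (24.6% and 7.68%), and with both states at 50 CPM, 17 of 69 and 0 (19.1% and 5.01%). With gates on thinned counts, it was -0.16. Cox7a2 stood highest by share, at 327 and 540 CPM in effector and NK cells of the WT-labelled library and at 438 and 651 CPM in the KO-labelled library. Uqcr11, Ndufc1, Ndufs4 and Atp5d were also called higher in NK cells. Cox7a2l was at the low end, at 529 and 434 CPM and at 495 and 419 CPM, followed by Atp5j, Uqcr10, Uqcrh and Atp5g1, none of which was called. Among mitochondrial genes, 1 of 12 was lower, beside 7.4% of all genes, mt-Nd3 with log2 ratios of -0.26 and -0.47.

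Several subunits have alternative isoforms, and their balance differed between states. Cox7a2 is the common form of a subunit at the rim of complex IV, Cox7a1 its muscle form, and Cox7a2l a relative with the supercomplex role named above. Cox7a2 gave 25.6% of the family's UMIs in naive, 38.1% in effector, 47.0% in PD-1 and 63.2% in cycling cells of the WT-labelled library, and 36.7%, 46.9%, 57.0% and 70.9% in the KO-labelled library. Cox7a2l went from 74.4% and 63.2% in naive to 36.5% and 28.8% in cycling cells. The 2 genes thus changed places as the leading member between effector and cycling cells, and Cox7a1 stayed at or under 0.344%. Since both are shares of 1 family, this balance does not depend on the total used for CPM.

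Subunit c of the ATP synthase rotor is the same mature protein from the 3 genes Atp5g1, Atp5g2 and Atp5g3. Atp5g2 led in all states, from 65.7% and 60.1% of the family's UMIs in naive cells to 49.8% and 48.2% in cycling cells. Atp5g1, known in other tissues as the form that follows energy demand, went from 17.9% and 20.7% to 27.0% and 27.6%, and Atp5g3 from 16.4% and 19.2% to 23.1% and 24.2%.

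Isoforms of muscle, testis or lung were rare. Cox6a2, a muscle form, gave 11 and 26 UMIs in NK cells, 2.14% and 3.14% of Cox6a1 and Cox6a2 together, and at most 0.238% in T cell states. Cox6b2, a testis form, gave at most 0.867% of its family. Cox4i2, Cox8b and Ndufa4l2 had at most 9, 3 and 24 UMIs in a state, and Cox7b2 and Cox8c had 0 in all 5 states of both libraries. A count of 0 allows up to 3 UMIs by counting error.

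**Figure D4:**
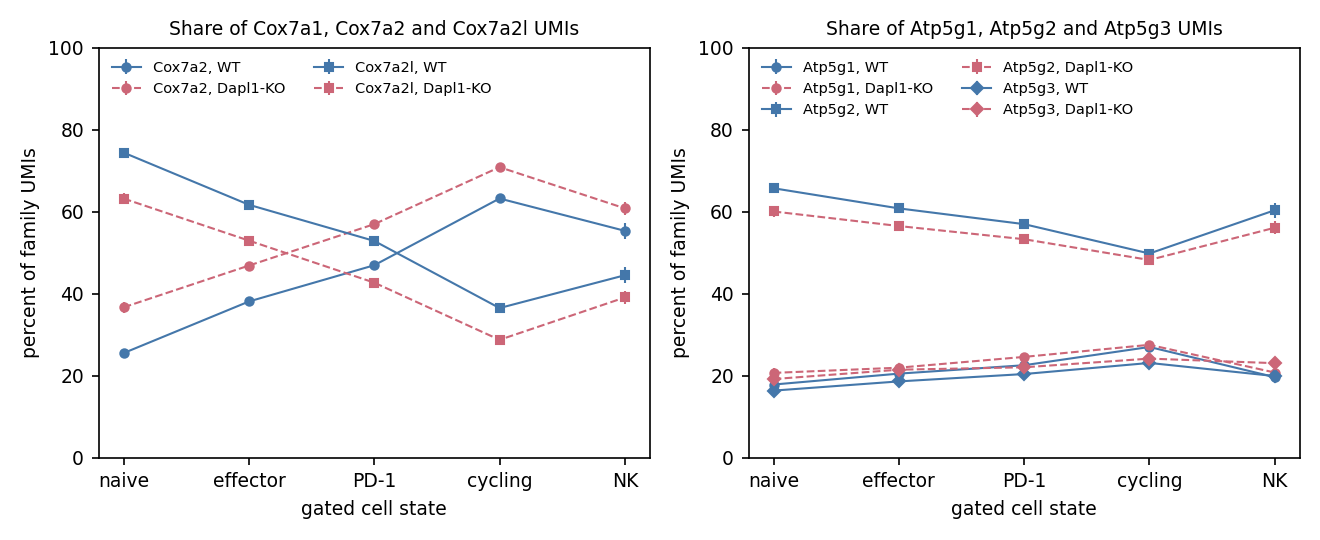
Shares (percent) of family UMIs for Cox7a2 and Cox7a2l (left) and for Atp5g1, Atp5g2 and Atp5g3 (right) by state, solid for the WT-labelled and dashed for the KO-labelled library, with 95% binomial intervals mostly hidden by the symbols. Cox7a2 climbs from 25.6% and 36.7% in naive to 63.2% and 70.9% in cycling cells, and Cox7a2l descends.

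Other genes of the pathway that the symbol rule does not take showed higher levels in cycling cells too. All 4 genes of complex II, succinate dehydrogenase, were higher in cycling than PD-1 cells, as were 4 of 4 electron carrier genes compared, 7 of 9 genes of the tricarboxylic acid cycle and 34 of 47 genes of the mitochondrial ribosome, beside 36.2% of all genes. These lists were not compared at other depths. Cyc1, cytochrome c1, was at 56.8 and 132 CPM in PD-1 and cycling cells of the WT-labelled library and at 76.5 and 139 CPM in the KO-labelled library. Cycs, cytochrome c, was at 137 and 293 CPM and at 208 and 371 CPM. Fumarase (Fh1) had a mean log2 ratio of 1.18 and Idh3a, a subunit of isocitrate dehydrogenase, 0.82. Mrpl28 (1.07) and Mrpl18 (1.03) led the mitochondrial ribosome.

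Between effector and PD-1 cells, 2 of 3 electron carriers, 4 of 7 assembly factors of complexes III to V, 23 of 33 mitochondrial ribosome genes and 1 of 5 tricarboxylic acid cycle genes were higher, beside 32.9% of all genes. Etfb, a subunit of the flavoprotein that carries electrons from fatty acid oxidation, was at 74.2 and 159 CPM in the WT-labelled library and at 80.3 and 203 CPM in the KO-labelled library. Cox17, a copper chaperone for complex IV, had a mean log2 ratio of 1.04, and Uqcc2, an assembly factor of complex III, 0.93. Slirp (0.69) and Ssbp1 (0.53), which bind mitochondrial RNA and DNA, were both higher, the 2 of 13 genes of mitochondrial transcription and RNA care that could be compared. Of 9 regulators of biogenesis only Yy1 could be compared in the T cell states, and its ratios were near 0 at that step, at 0.13 and -0.16.

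Levels in the KO-labelled library were mostly above those in the WT-labelled library for the nuclear genes, most in naive and least in cycling cells, though not at every choice of cells. In naive cells, 55 of 69 members were at least 1.2-fold higher and 0 lower, beside 30.9% higher and 17.9% lower of all 1875 genes. The naive gates also differed in markers, with Il7r at 533 and 328 CPM, Nkg7 at 366 and 585 CPM, Cx3cr1 at 2.58 and 18.3 CPM and Trdc in 8.04% and 14.01% of cells of the WT-labelled and the KO-labelled library, and their part in this difference was not tested. In effector cells 32 of 73 were higher and 0 lower (all genes 23% and 6.76%), in PD-1 cells 24 of 74 and 0 (22% and 8.38%), and in NK cells 31 of 74 with 1 lower (20.4% higher and 10.8% lower). In cycling cells it was 8 higher and 1 lower of 74 (15.6% and 6.83%). In cycling cells of 5000 to 15000 UMIs, 31 of 74 were higher and 0 lower (27.4% and 13.8%), and among those with Y-linked messages and no Xist, 117 and 1757 cells, 11 were higher and 14 lower (27.7% and 16.8%). The log2 ratio of the nuclear sum was 0.37 in naive, 0.25 in effector, 0.17 in PD-1, 0.078 in cycling and 0.23 in NK cells. Whether the ratio differs between states was not tested. Library, sex and label cannot be told apart over all cells. With every deposited barcode 52, 8, 9, 1 and 21 members were apart in either direction in naive, effector, PD-1, cycling and NK cells, against 55, 32, 24, 9 and 32. Of all genes, 48.8%, 29.8%, 30.4%, 22.4% and 31.1% were apart in either direction, beside the counts of 55, 32, 24, 9 and 32. No such share is given for every deposited barcode.

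Ndufa3, an accessory subunit of complex I, was among the 4 highest ratios in all 5 states. It was at 112, 150, 181, 212 and 174 CPM in naive, effector, PD-1, cycling and NK cells of the WT-labelled library and at 190.5, 228, 262, 268 and 264 CPM in the KO-labelled library. The level in the KO-labelled library was the higher one in each state, with a log2 ratio of 0.76 (0.65 to 0.88) in naive and 0.33 (0.30 to 0.37) in cycling cells. Ndufb2 in naive cells had the largest ratio, 0.87 (0.69 to 1.05), at 44.8 and 81.7 CPM, and Ndufc1 followed at 0.77 (0.58 to 0.96). Uqcrb, which binds ubiquinone in complex III, was at 103 and 172 CPM in naive cells, and Atp5j, a stalk subunit of complex V, at 318 and 449 CPM in PD-1 cells. Atp5md and Ndufb1-ps were among the highest in NK cells, with ratios of 0.55 and 0.52. The annotation lists Ndufb1-ps as a non-coding transcript.

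A few nuclear genes stood lower in the KO-labelled library. Ndufv1 was at 96.2 and 75.5 CPM in cycling cells of the WT-labelled and the KO-labelled library, a log2 ratio of -0.35 (-0.41 to -0.29). Ndufa10 was at 80.2 and 59.3 CPM in NK cells, -0.43 (-0.73 to -0.15), and under 0 but not called in effector (-0.23), PD-1 (-0.20) and cycling cells (-0.20). Cox7a2l had ratios of -0.17, -0.10, -0.20, -0.19 and -0.05 in naive, effector, PD-1, cycling and NK cells, none called. Core subunits of complex I, summed, had a ratio of -0.13 (-0.15 to -0.11) in cycling cells, where the accessory subunits had 0.087 (0.080 to 0.093). In the other states the core sum was not lower under the KO label. It was at 296 and 357 CPM in naive, 411 and 418 CPM in effector, 566 and 569 CPM in PD-1 and 465 and 476 CPM in NK cells. Of the 3 X-linked members, Ndufa1 had 0.69 and Cox7b 0.57 in naive cells, both called higher, and Ndufb11 had 0.23, which was not called.

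Mitochondrial genes differed between the labels gene by gene rather than together. The largest ratio in every state was that of mt-Nd3, a small membrane subunit of complex I. It was at 370, 351, 307, 390 and 292 CPM in naive, effector, PD-1, cycling and NK cells of the WT-labelled library and at 718, 587, 490, 610 and 423 CPM in the KO-labelled library, log2 ratios of 0.96, 0.74, 0.68, 0.64 and 0.53. The KO-labelled level exceeded every WT-labelled level. In naive cells mt-Nd2 had 0.67, mt-Nd1 0.49, mt-Nd4 0.42, mt-Cytb 0.40 and mt-Nd4l 0.37, all called higher, 6 of 12 with mt-Nd3, beside 30.9% of all genes.

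In contrast, mt-Co1 was at 7028, 6701, 6362, 5546 and 6484 CPM in the WT-labelled library and at 6766, 6530, 5810, 5358 and 5941 CPM in the KO-labelled library, slightly lower in each state. The ratios of mt-Atp6 lay between -0.05 and 0.05, those of mt-Nd5 between -0.06 and 0.10, and those of mt-Co3 between 0.02 and 0.12. The ratios of mt-Co2 lay between 0.06 and 0.21 and those of mt-Atp8 between -0.09 and 0.08. The level of mt-Nd6, the only member encoded on the light strand of mitochondrial DNA, was at most 42.0 CPM, below the limit for comparison. Summed, the mitochondrial genes had log2 ratios of 0.14, 0.11, 0.050, 0.14 and 0.021 in the 5 states. The PD-1 value was -0.053 without mitochondrial and ribosomal genes in the total, and the NK value was -0.041 there, -0.012 by per-cell shares and -0.18 among Y-linked cells. Genes called higher numbered 5 of 12 in effector (all genes 23%), 5 in PD-1 (22%), 6 in cycling (15.6%) and 2 in NK cells (20.4%), and 0 were lower in any state.

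**Figure D5:**
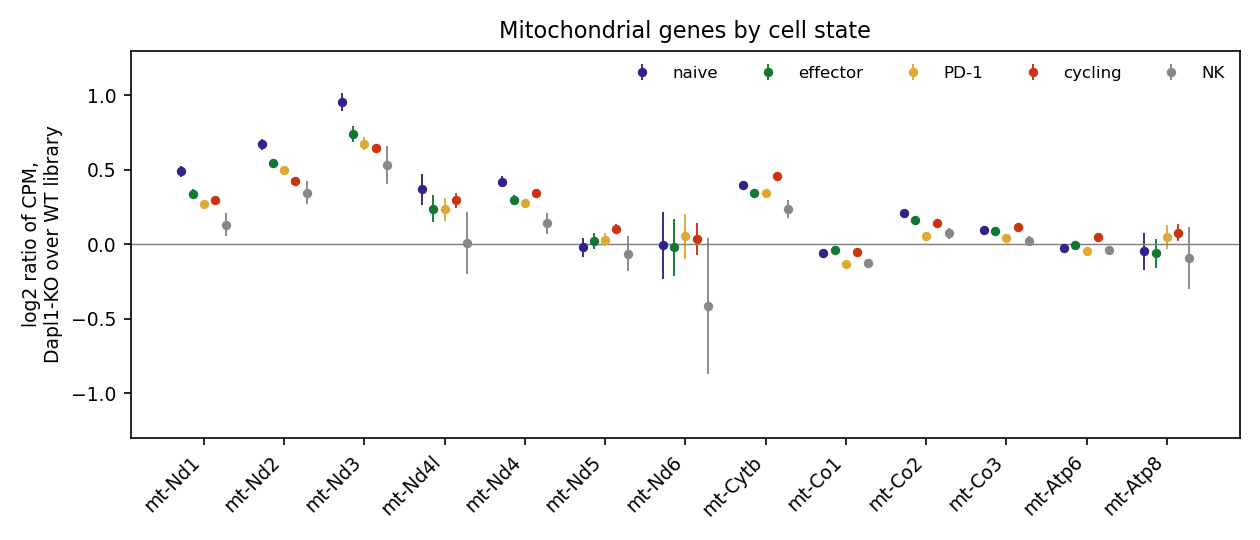
Log2 ratio of CPM, KO-labelled over WT-labelled library, for each mitochondrial gene in 5 states, with 95% counting intervals as bars. Points of mt-Nd3 lie between 0.53 and 0.96, those of mt-Nd2 between 0.35 and 0.67, and those of mt-Co1 between -0.13 and -0.04, so the order of genes is much the same in each state.

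Cells with the same sex-linked messages were compared over the 5 states pooled. Between 5619 KO-labelled and 753 WT-labelled cells with Y-linked messages and no Xist, the log2 ratio of mt-Nd3 was 0.94 (0.89 to 0.99), that of mt-Nd2 0.67 and that of mt-Cytb 0.68, and mt-Co1 was at -0.21. The nuclear sum had 0.23. Inside the WT-labelled library, cells with Y-linked messages against the 4762 with Xist had -0.30 for mt-Nd3, -0.32 for mt-Cytb and -0.028 for the nuclear sum. Over all cells of the 5 states, the ratio between labels was 0.69 for mt-Nd3, 0.40 for mt-Cytb, -0.10 for mt-Co1 and 0.20 for the nuclear sum. These 4 ratios were nearer to 0 than among cells with Y-linked messages, whereas the mitochondrial sum had 0.083 over all cells and 0.063 among those, and mt-Co2 0.12 and 0.053. The mix of states differs between these classes.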

How the data were processed

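Single-cell messages of sorted tumour lymphocytes were measured with 10x Genomics 3′ chemistry, 1 library per genotype label. The authors deposited UMI counts, without normalization, made with Cell Ranger 5.0.0 on builds mm10 and GRCm38, per the submitters' processing notes; depth was 154408101 UMIs in 16673 barcodes (WT label) and 206322042 in 19662 (Dapl1-KO label). Members, lists and gates were chosen with earlier results of these data known, and parts of the processing follow an earlier account of them.

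Of 13132 shared barcodes, only copies with at least 2 times the UMIs of the other were kept, which dropped 5983 and 7128 barcodes and 21 unclear ones in each library. A minimum of 500 genes and a limit of 10% on mitochondrial messages left 9865 and 11156 cells, and 6478 and 7810 of them fell in the 5 states. No doublet caller was run. Cells with 3 or more UMIs of myeloid, B cell or melanocytic genes, or with Cd4 and Cd8b1 together, were left out, and a ceiling on UMIs was an alternative. Counts were summed per library and state and divided by the total (CPM). A gene was called at 1.2-fold or more with 50 CPM or more in the higher group, in both libraries for states. Intervals are exact 95% intervals from counts (ratios, conditional binomial; shares, Clopper-Pearson) and cover counting error only. Genes named are all mitochondrial members, the isoform sets, X-linked members, the 2 most abundant of each role, the 5 highest and lowest ratios per state contrast, the 4 per label contrast and the 2 of each further list. Others were named after their values were seen. A few genes that the rule or the gates hold are not reported here. Alternatives were other filters, totals, gates, depths, folds and cells; the depth window, the total without ribosomal genes, the depth bins, the sex-linked classes pooled over states, the label counts in cycling cells by depth and the motifs were chosen after seeing the data. Calculations used Python 3.11.15, numpy 2.4.6, scipy 1.17.1 and pandas 2.3.3 and were tested on simulated data.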

Additional observations from a re-analysis of the deposited data

How the results depend on the processing

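No paired analysis was possible because each label has 1 library. Of the values under alternatives, 152 stayed within the spread or 1.5 times of the count, 73 moved further and 7 changed sign; the cause was not tested. The range over the 2 libraries taken alone was 0.29 to 0.41 for the nuclear sum in effector over naive cells, 0.34 to 0.42 in PD-1 over effector, 0.19 to 0.28 in cycling over PD-1 and 0.18 to 0.20 in NK over effector cells; for the mitochondrial sum it was -0.14 to -0.12, -0.19 to -0.13, -0.084 to 0.0050 and -0.19 to -0.098. With gates on thinned counts, nuclear sums were 0.60, 0.15, 0.090 and -0.16, the last reversed, and mitochondrial sums -0.26, -0.060, 0.013 and 0.027, the last reversed. Cells of 5000 to 15000 UMIs gave nuclear 0.32 (PD-1 over effector), 0.081 (cycling over PD-1) and 0.21 (NK over effector) and mitochondrial -0.11 (effector over naive) and 0.21 (cycling over PD-1). Without mitochondrial and ribosomal genes in the total, nuclear sums were 0.15, 0.31 and 0.072 (effector over naive, PD-1 over effector, NK over effector) and mitochondrial sums -0.32, -0.23 and -0.26. Means of per-cell shares gave nuclear 0.29 (PD-1 over effector) and 0.16 (NK over effector) and mitochondrial 0.012 (cycling over PD-1), and every deposited barcode gave nuclear 0.13 (NK over effector).

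Between labels, counts of nuclear members apart were 8, 9, 1 and 21 (effector, PD-1, cycling, NK) with every deposited barcode, 11 (effector) and 13 (PD-1) with thinned gates, 31 (cycling) at 5000 to 15000 UMIs, 19 (NK) without ribosomal genes in the total, and 14, 1, 0, 0 and 1 at a fold of 1.5. In cells with Y-linked messages and no Xist they were 50, 25 and 54 (effector, cycling, NK), of which 45, 11 and 44 were higher and 5, 14 and 10 lower (NK with 16 WT-labelled cells). PD-1 cells there had 21 higher and 9 lower. Shares of all genes under these settings are given, above, only for cycling cells at 5000 to 15000 UMIs and with Y-linked messages. The other counts have no background beside them and are not read as a result about the members. The mitochondrial sum between labels, in naive, effector, PD-1 and cycling cells, was 0.13, 0.098, 0.038 and 0.11 with every barcode, 0.085, 0.088, 0.018 and 0.11 at a mitochondrial limit of 5%, and 0.15, 0.12, 0.044 and 0.14 in CD8 T cells. In effector, PD-1 and cycling cells it was 0.13, 0.083 and 0.12 at a limit of 20%. It was 0.14 (cycling) without mitochondrial genes in the total, 0.16 (naive) and 0.095 (effector) without cells over 3 times the median UMIs, and 0.092, 0.037, 0.034 and 0.0047 (effector, PD-1, cycling, NK) at 5000 to 15000 UMIs. Thinned gates gave 0.12, 0.13, 0.10, 0.13 and 0.039 in the 5 states. Per-cell shares gave 0.15 (naive), 0.072 (effector), 0.11 (cycling) and -0.012 (NK, reversed). Y-linked cells gave 0.22, 0.17, 0.11, 0.049 and -0.18 (NK, reversed), and the total without ribosomal genes 0.039 (effector), -0.053 (PD-1, reversed), 0.077 (cycling) and -0.041 (NK, reversed). Depth limits NK cells most, with 376 and 466 cells.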
